A study of Mus musculus with 12 samples.

Results

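Serum amyloid A1 (Saa1), A2 (Saa2) and A3 (Saa3), haptoglobin (Hp), ceruloplasmin (Cp), lipocalin 2 (Lcn2) and the serine protease inhibitors Serpinb2, Serpina3g and Serpina3n were followed in macrophages that had or lacked the inducible NO synthase. The set was chosen by gene name, and a gene was included through array probe sets that the platform annotation gives to that gene alone. Such probe sets were found for 8 of the 9 genes, of 18193 genes measured. They number 16, with 8 for Cp, 2 for Saa1 and 1 for each of the other genes. Serpina3g has no probe set of its own in the annotation and has no value here. Where a gene had more than 1, the brightest probe set by its mean across arrays represented it, and all are described below.

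BMDMs, which are macrophages grown from bone marrow in M-CSF, came from Nos2-/- mice (B6.129P2-Nos2tm1Lau/J), in which Nos2 is disrupted in every cell, and from WT C57BL/6 mice. The mice were 6 to 10 weeks old. Stimulated cells of both genotypes were exposed for 8 h to LPS at 100 ng/mL together with IFNγ at 50 ng/mL, which drives inflammatory activation. The 4 groups were stimulated Nos2-/-, stimulated WT, untreated Nos2-/- and untreated WT, with 3 biological replicates and 1 Affymetrix Mouse Genome array each, 12 arrays in all. Untreated cells had PBS according to the methods, whereas the sample labels place them before stimulation. The labels do not say whether the replicates of a group came from different mice, so the p-values measure the spread between these samples.

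Acute phase proteins are plasma proteins that the liver makes in larger amounts during inflammation, mainly in reply to IL-6 and IL-1, through the transcription factors STAT3, C/EBP and NF-kB. Macrophages make several of them locally, and mouse Saa3 is known as the serum amyloid A of macrophages and other tissues outside the liver. Several members act on iron. Haptoglobin binds free hemoglobin, ceruloplasmin is a copper-containing ferroxidase that works beside the iron exporter ferroportin, and lipocalin 2 binds the siderophores with which bacteria take up iron. Serpins trap their target protease in an irreversible complex. Serpinb2 (plasminogen activator inhibitor 2) inhibits urokinase, and Serpina3n is a secreted inhibitor related to human SERPINA3.

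Saa1, Saa2 and Saa3 lie together on chromosome 7, and their promoters are shown because the arrays did not fully separate Saa1 from Saa2. Each line gives the 250 bases before the start of the gene in RefSeq (GRCm38.p6), 5′ to 3′ on the strand of the gene. Capitals mark the letters TTGCNNAA, on either strand, a core of the site read by C/EBP factors.
Saa1, chr7:46742981-46743230, minus strand: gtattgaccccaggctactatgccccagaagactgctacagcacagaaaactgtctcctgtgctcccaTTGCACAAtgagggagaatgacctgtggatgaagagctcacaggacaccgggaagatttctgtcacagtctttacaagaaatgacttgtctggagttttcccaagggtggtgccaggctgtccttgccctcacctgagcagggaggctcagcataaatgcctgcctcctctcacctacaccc
Saa2, chr7:46751583-46751832, plus strand: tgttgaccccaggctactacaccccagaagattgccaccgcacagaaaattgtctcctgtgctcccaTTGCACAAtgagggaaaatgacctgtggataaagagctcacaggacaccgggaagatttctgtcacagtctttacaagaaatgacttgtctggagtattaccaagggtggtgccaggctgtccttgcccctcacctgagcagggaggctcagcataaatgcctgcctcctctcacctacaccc
Saa3, chr7:46715677-46715926, minus strand: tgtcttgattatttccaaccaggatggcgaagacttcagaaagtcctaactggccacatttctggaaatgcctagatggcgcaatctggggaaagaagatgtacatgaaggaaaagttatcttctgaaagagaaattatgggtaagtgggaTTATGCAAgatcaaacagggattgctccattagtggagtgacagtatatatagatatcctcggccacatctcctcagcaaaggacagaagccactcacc
Lcn2, chr2:32387740-32387989, minus strand: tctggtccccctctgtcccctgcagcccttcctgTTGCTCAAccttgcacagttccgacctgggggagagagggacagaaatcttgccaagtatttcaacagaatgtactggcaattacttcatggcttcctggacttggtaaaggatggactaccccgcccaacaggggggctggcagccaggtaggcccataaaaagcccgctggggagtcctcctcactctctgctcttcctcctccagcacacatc
Lcn2 on chromosome 2 is added as a member with a large response. When the windows of Saa1 and Saa2 were aligned, 238 of 250 bases were identical, with 11 mismatches and 2 gap positions. TTGCACAA stands at positions -182 to -175 from the start in Saa1 and at -183 to -176 in Saa2, and TTATGCAA, which holds the motif on the other strand, at -99 to -92 in Saa3. Of the 8 members with a promoter in the table (Hp has none), 6 held TTGCNNAA in a window, namely Saa1, Saa2, Saa3, Cp, Lcn2 and Serpinb2. Cp and Serpinb2 have 2 windows each, so that 7 of 10 windows held it. Over all 32841 windows of this length 9.6% held it. TTCNNNGAA, a STAT site, was found in Serpinb2 and Serpina3g and in 7.0% of all windows, and TATAAA in Serpinb2 and Cp and in 12.4%. The kappaB consensus, read by NF-kB, was found in 1 of the 8, Serpina3g, and in 3.9% of all windows. No motif other than TTGCNNAA was found in the 4 printed windows, and the motifs searched did not overlap there. The letters were set after these windows had been read, and a match is a run of letters and not a measured binding site.

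Values are log2 signals after RMA, which corrects background, brings the arrays to 1 distribution and summarises the probes of a probe set. A difference of 1 is therefore 2-fold. Array medians ran from 5.14 to 5.21 and array maxima from 14.65 to 14.73. A signal was flagged as near the maximum where all 3 arrays of a group lay within 1 log2 unit of the highest signal on the same array, and as near background where all 3 lay below the 25th percentile of the same array, which was 3.87 or more. Within a group, arrays correlated at 0.996 or above over all probe sets. Nos2 itself read 7.69 ± 0.22 in stimulated Nos2-/- and 9.73 ± 0.09 in stimulated WT macrophages, and 5.31 ± 0.14 in untreated Nos2-/- and 5.50 ± 0.14 in untreated WT macrophages (SD, n = 3 each). The files do not tell whether its probe set lies in the disrupted part of the gene, so this does not check the genotype. None of the members shares chromosome 11 with Nos2.

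With LPS and IFNγ, 7 of the 8 members rose in Nos2-/- macrophages and all 8 rose in WT macrophages. Over all genes, 26.3% were called higher in Nos2-/- and 29.6% in WT macrophages. A call is a Benjamini-Hochberg adjusted p under 0.05 in limma over all genes, with no minimum fold. The responses ran from 0.12 to 8.13 on the log2 scale in Nos2-/- macrophages (median 5.21) and from 0.35 to 8.41 in WT macrophages (median 4.87), beside medians over all genes of 0.05 and 0.07. Serpina3n was the member that was not called in Nos2-/- macrophages. In the fit of single probe sets, 15 of the 16 were called higher in Nos2-/- and 16 of 16 in WT macrophages, against 23.0% and 25.2% of all probe sets.

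**Figure D1:**
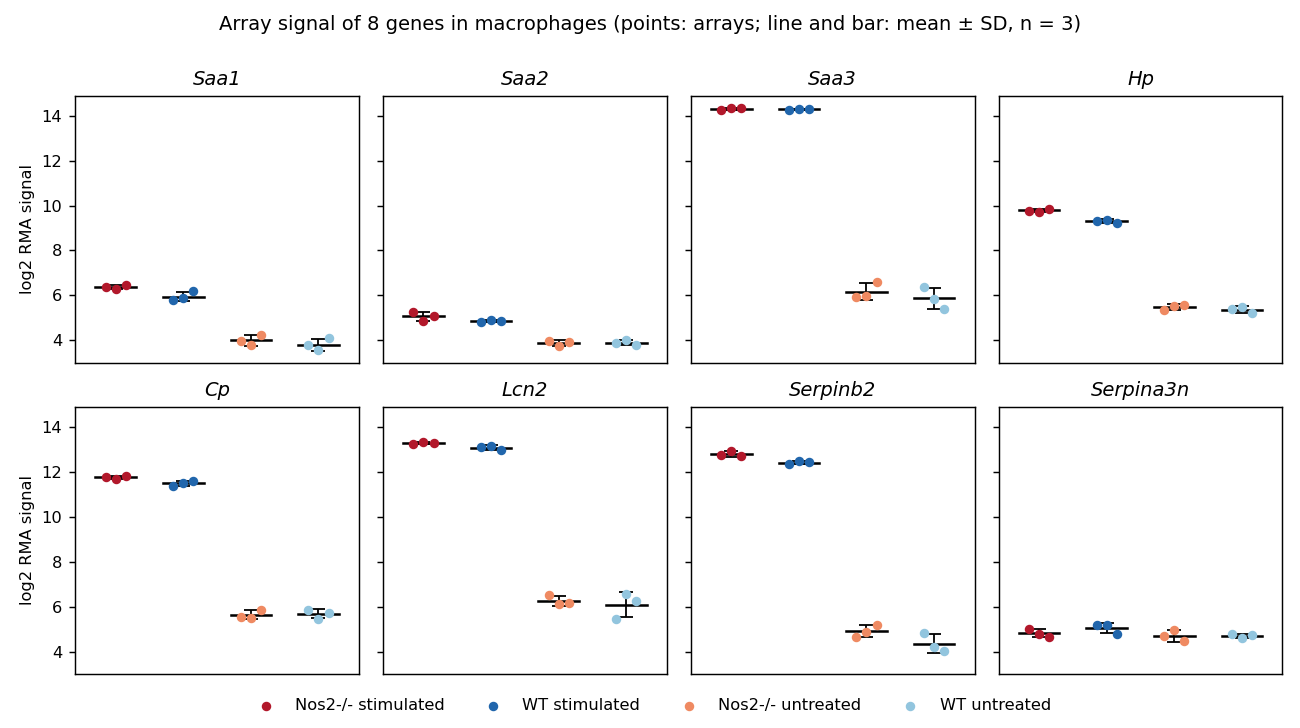
The vertical axis is the log2 RMA signal of the probe set used for each of 8 genes, with a point per array in stimulated Nos2-/-, stimulated WT, untreated Nos2-/- and untreated WT macrophages, and a line and bar for mean ± SD (n = 3). Stimulated arrays lie far above untreated arrays for Saa3, Hp, Cp, Lcn2 and Serpinb2, and Serpina3n stays between 4.45 and 5.18.

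Saa3 read 14.24, 14.32 and 14.34 in stimulated Nos2-/- arrays and 14.27, 14.29 and 14.29 in stimulated WT arrays. In untreated cells it read 5.91, 5.98 and 6.61 in Nos2-/- arrays and 6.36, 5.85 and 5.41 in WT arrays. All stimulated arrays were thus far above all untreated ones, and every stimulated array was flagged near the maximum, with Saa3 between rank 5 and rank 10 of 45037 probe sets. The rise was 280-fold in Nos2-/- (95% interval 207 to 378) and 340-fold in WT macrophages (252 to 459). These folds, like the level itself, may be limited by the top of the scale, which was not tested.

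Saa1 and Saa2 had smaller responses. Saa1 read 6.37, 6.29 and 6.45 in stimulated Nos2-/- arrays and 5.78, 5.88 and 6.18 in stimulated WT arrays, against 3.97, 3.79 and 4.26 in untreated Nos2-/- arrays and 3.79, 3.56 and 4.09 in untreated WT arrays. Its rise was 5.13-fold in Nos2-/- (4.13 to 6.36) and 4.39-fold in WT macrophages (3.54 to 5.45), with no overlap between stimulated and untreated arrays. For Saa2 the signals were 5.27, 4.86 and 5.09 in stimulated Nos2-/- arrays and 4.80, 4.90 and 4.86 in stimulated WT arrays, against 3.99, 3.75 and 3.92 in untreated Nos2-/- and 3.90, 4.01 and 3.78 in untreated WT arrays. That is a rise of 2.27-fold in Nos2-/- (1.96 to 2.64) and 1.94-fold in WT macrophages (1.67 to 2.25). Untreated signals of both genes lay around the 25th percentile, where a fold understates the change of a gene that is off.

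The probe sets of Saa1 and Saa2 share their target in part. The one used for Saa1 (1419075_s_at) and the one for Saa2 (1449326_x_at) were designed on the same RefSeq transcript, which RefSeq gives to Saa2, and each gene carries the other's name as a synonym. Only the second Saa1 probe set (1450788_at) was designed on a transcript that RefSeq gives to Saa1. It read 6.37, 5.87 and 6.04 in stimulated Nos2-/- arrays and 5.30, 5.84 and 5.65 in stimulated WT arrays, against values from 3.12 to 3.49 in the 6 untreated arrays, flagged near background in both genotypes. Its rise was 7.00-fold in Nos2-/- and 4.93-fold in WT macrophages. Both probe sets annotated to Saa1 thus rose, but the one designed on the Saa2 transcript is not separate evidence for Saa1. Between the stimulated genotypes 1450788_at differed by 0.50 (SE 0.15, limma adjusted p = 0.124).

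Hp read 9.77, 9.73 and 9.84 in stimulated Nos2-/- arrays and 9.33, 9.37 and 9.23 in stimulated WT arrays. Untreated arrays gave 5.35, 5.54 and 5.59 in Nos2-/- and 5.40, 5.48 and 5.21 in WT cells. The rise was 19.5-fold in Nos2-/- (17.2 to 22.2) and 15.4-fold in WT macrophages (13.6 to 17.5).

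Cp, through its brightest probe set (1417494_a_at), read 11.77, 11.69 and 11.82 in stimulated Nos2-/- arrays and 11.37, 11.48 and 11.58 in stimulated WT arrays. The untreated signals were 5.52, 5.51 and 5.86 in Nos2-/- and 5.87, 5.47 and 5.70 in WT arrays. This was a rise of 70.0-fold in Nos2-/- (59.3 to 82.6) and 55.6-fold in WT macrophages (47.2 to 65.7).

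Lcn2 read 13.24, 13.31 and 13.29 in stimulated Nos2-/- arrays and 13.12, 13.15 and 12.97 in stimulated WT arrays, against 6.53, 6.10 and 6.16 in untreated Nos2-/- arrays and 5.47, 6.54 and 6.23 in untreated WT arrays. It rose 129-fold in Nos2-/- (96.1 to 174) and 128-fold in WT macrophages (94.7 to 172). The lowest of the 6 untreated arrays, 5.47 in WT replicate 1, stood apart from the other 5, which lay between 6.10 and 6.54.

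Serpinb2 was the serpin with a large response. It read 12.74, 12.93 and 12.69 in stimulated Nos2-/- arrays and 12.33, 12.49 and 12.42 in stimulated WT arrays, against 4.64, 4.88 and 5.18 in untreated Nos2-/- arrays and 4.82, 4.21 and 4.01 in untreated WT arrays. The rise was 237-fold in Nos2-/- (183 to 307) and 268-fold in WT macrophages (207 to 348).

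Serpina3n, on the same arrays, read 5.02, 4.76 and 4.66 in stimulated Nos2-/- and 5.17, 5.18 and 4.77 in stimulated WT arrays. Untreated arrays gave 4.69, 4.94 and 4.45 in Nos2-/- and 4.77, 4.59 and 4.72 in WT cells. Its log2 fold change was 0.12 in Nos2-/- (SE 0.14, adjusted p = 0.467, interval -0.17 to 0.42), where the groups overlap, and 0.35 in WT macrophages (SE 0.14, adjusted p = 0.0424). In WT cells the lowest stimulated and the highest untreated array both round to 4.77. The call was lost in 11 of 23 alternatives, among them centring each array on its median (adjusted p = 0.0732) and repeated quantile normalization (0.109). It was also lost without WT untreated replicate 1, 2 or 3 (adjusted p = 0.055, 0.130 and 0.0746), without WT stimulated replicate 1 or 2 (0.141 each), without Nos2-/- untreated replicate 1 (0.0524) and without Nos2-/- stimulated replicate 2 (0.0510).

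**Figure D2:**
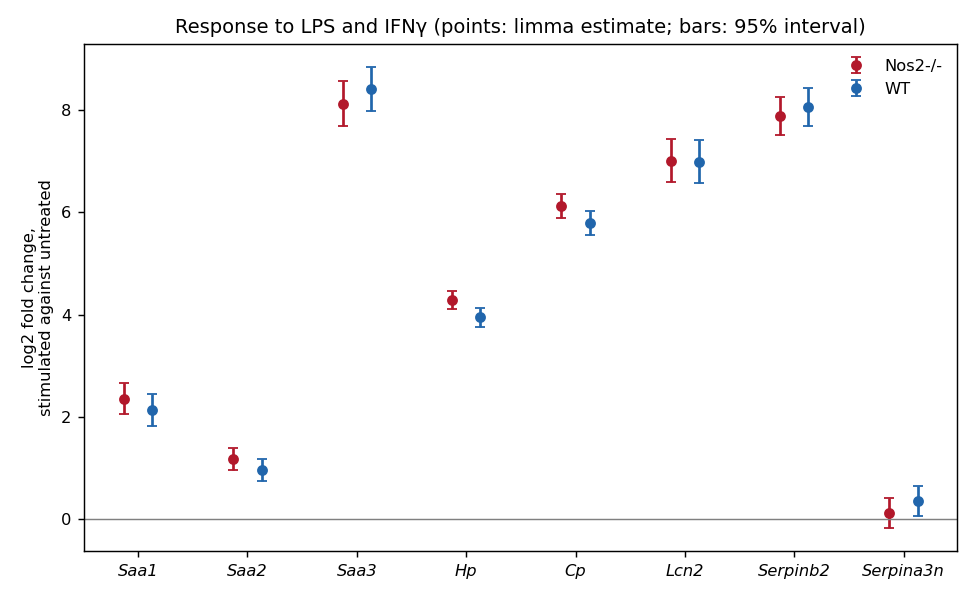
The vertical axis is the log2 fold change of stimulated against untreated macrophages for 8 genes, with the limma estimate and its 95% interval in Nos2-/- and in WT macrophages. The intervals of Serpina3n lie near 0, while Saa3, Lcn2 and Serpinb2 lie between 7.00 and 8.41 in both genotypes.

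Markers of other cell types were measured beside these responses. All 9 macrophage markers were above the array median in every group, and their summed linear signal was 77680 to 79414 in stimulated Nos2-/-, 77639 to 79682 in stimulated WT, 76839 to 78718 in untreated Nos2-/- and 77146 to 78967 in untreated WT arrays. The similar sums hide changes in both directions. In each genotype 3 of these 9 genes rose with stimulation (Cd14, Fcgr1 and Msr1) and 5 fell (Adgre1, Cd68, Csf1r, Lyz2 and Mertk). Lyz2 was near the maximum in all 4 groups. The sum over 11 neutrophil markers rose with stimulation, mostly through S100a8 and Csf3r, the brightest of them in stimulated cells. It was 10738 to 11084 in stimulated Nos2-/-, 8589 to 9048 in stimulated WT, 1956 to 2675 in untreated Nos2-/- and 1767 to 2252 in untreated WT arrays. Of these 11 genes, 5 rose in each genotype (S100a8, Csf3r, Mmp8, Camp and Mpo) and none was called between the stimulated genotypes. S100a9, Ngp, Elane, Prtn3 and Cd177 were called in neither response. For this and the other marker lists, the shares of all genes called higher were 26.3% in Nos2-/- and 29.6% in WT macrophages, and 28.2% and 28.4% were called lower. Between the stimulated genotypes 1.03% of all genes were called higher and 1.91% lower. S100a8 was 12.67 in stimulated Nos2-/-, 12.27 in stimulated WT, 9.10 in untreated Nos2-/- and 8.88 in untreated WT macrophages. Csf3r was 11.28 in stimulated Nos2-/-, 11.03 in stimulated WT, 8.09 in untreated Nos2-/- and 8.11 in untreated WT macrophages. Camp, Mmp8 and Ltf, like Lcn2, encode proteins of neutrophil granules. Camp was 7.15 in stimulated Nos2-/-, 7.09 in stimulated WT, 6.19 in untreated Nos2-/- and 6.27 in untreated WT macrophages, and Mmp8 was 9.49 in stimulated Nos2-/-, 9.44 in stimulated WT, 8.77 in untreated Nos2-/- and 8.73 in untreated WT macrophages. Ltf, which was not called in either response, was 6.22 in stimulated Nos2-/-, 6.25 in stimulated WT, 6.43 in untreated Nos2-/- and 6.33 in untreated WT macrophages. The sum over 5 dendritic cell markers was 438 to 545 in stimulated Nos2-/- and 345 to 435 in stimulated WT arrays, against 173 to 183 in untreated Nos2-/- and 172 to 180 in untreated WT arrays. Of these 5 genes 2 rose in Nos2-/- and 4 in WT macrophages. Ccr7, a chemokine receptor that macrophages can also express, carried most of the rise in the sum. It was 8.33 in stimulated Nos2-/-, 7.83 in stimulated WT, 5.02 in untreated Nos2-/- and 4.91 in untreated WT macrophages. None of the others changed by more than 0.50 on the log2 scale in either genotype.

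The other marker lists were measured in the same way. None of their genes or of the dendritic cell markers was called between the stimulated genotypes, beside 1.03% of all genes called higher and 1.91% lower. With shares this small, 0 calls in such short lists does not show that the genotypes match. For 9 hepatocyte markers the sum was 331 to 340 in stimulated Nos2-/-, 319 to 358 in stimulated WT, 299 to 317 in untreated Nos2-/- and 289 to 317 in untreated WT arrays, with 1 gene higher after stimulation in Nos2-/- (Ahsg) and 3 in WT macrophages (Ttr, Ahsg and Apoc3). Albumin, the defining gene of hepatocytes, which make most plasma acute phase proteins, lay between 4.16 and 4.31 in the 4 groups. For 8 fibroblast markers it was 195 to 202 in stimulated Nos2-/-, 189 to 198 in stimulated WT, 154 to 159 in untreated Nos2-/- and 148 to 152 in untreated WT arrays, with 3 genes higher in Nos2-/- and 4 in WT macrophages. Dcn, a proteoglycan of fibroblasts, was 5.69 in stimulated Nos2-/-, 5.58 in stimulated WT, 4.65 in untreated Nos2-/- and 4.62 in untreated WT macrophages, while Col1a1 lay between 3.95 and 4.21. For 4 adipocyte markers the sum was 123 to 144 in stimulated Nos2-/-, 131 to 148 in stimulated WT, 104 to 122 in untreated Nos2-/- and 106 to 120 in untreated WT arrays, with 0 genes called in Nos2-/- and 4 higher in WT macrophages. The difference between the responses was called for none of these, and Adipoq and Cidec were near background in all 4 groups. For 6 markers of T, NK and B cells the sum was 180 to 220 in stimulated Nos2-/-, 192 to 218 in stimulated WT, 189 to 199 in untreated Nos2-/- and 182 to 192 in untreated WT arrays, with 0 genes called higher in Nos2-/- and 1 in WT macrophages (Cd3e). The part of these cell types in the results was not tested, and in bulk RNA a change in the share of a cell type and a change in RNA per cell cannot be told apart.

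Between the stimulated genotypes, Hp was the 1 member of 8 that was called higher in Nos2-/- than in WT macrophages, and 0 were called lower. Over all genes 1.03% were called higher and 1.91% lower. Hp was 9.78 ± 0.05 in stimulated Nos2-/- and 9.31 ± 0.07 in stimulated WT macrophages (SD, n = 3 each), a difference of 0.47 on the log2 scale (SE 0.08, limma adjusted p = 0.00629), or 1.39-fold (1.22 to 1.57). The lowest Nos2-/- array, at 9.73, was above the highest WT array, at 9.37. The fold is under the 1.5-fold limit that the methods of the study set. The study drew Hp, Saa1 and Cp in a heat map of genes chosen on these same arrays, so their direction is not independent evidence. Its pathway analysis of the same arrays also predicted increased acute phase response signaling in stimulated Nos2-/- relative to stimulated WT cells. The false discovery limit printed in its methods was looser than the 0.05 used here.

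None of the other 7 members passed the test. Before adjustment, the limma p was under 0.05 for 4 of the 8 members (Saa1, Saa2, Hp and Cp) and for 2740 of all 18193 genes. For 7 of the 8 members, Hp included, the log2 fold change was above 0 (median 0.25, beside -0.01 over all genes), and in 5 (Saa1, Hp, Cp, Lcn2 and Serpinb2) all 3 Nos2-/- arrays were above all 3 WT arrays, as was the case for 8.21% of all genes. Saa1 was 6.37 ± 0.08 in stimulated Nos2-/- and 5.95 ± 0.21 in stimulated WT macrophages (difference 0.42, SE 0.14, adjusted p = 0.166). Cp was 11.76 ± 0.07 in Nos2-/- and 11.48 ± 0.11 in WT macrophages (0.28, SE 0.11, adjusted p = 0.240). Serpinb2 was 12.79 ± 0.13 in Nos2-/- and 12.41 ± 0.08 in WT macrophages (0.37, SE 0.17, adjusted p = 0.334).

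Where groups lay closer, the interval of the difference gives what these arrays could exclude. Lcn2 was 13.28 ± 0.03 in stimulated Nos2-/- and 13.08 ± 0.10 in stimulated WT macrophages, a difference of 0.20 with an interval of -0.23 to 0.63. Saa2 was 5.07 ± 0.20 in Nos2-/- and 4.85 ± 0.05 in WT macrophages, with overlapping arrays (0.22, interval 0.01 to 0.44, adjusted p = 0.318). Saa3 was 14.30 ± 0.05 in Nos2-/- and 14.28 ± 0.01 in WT macrophages (0.02, interval -0.42 to 0.45), with both groups near the maximum, where a difference could be compressed. Serpina3n was 4.82 ± 0.19 in Nos2-/- and 5.04 ± 0.23 in WT macrophages (-0.23, interval -0.52 to 0.07).

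**Figure D3:**
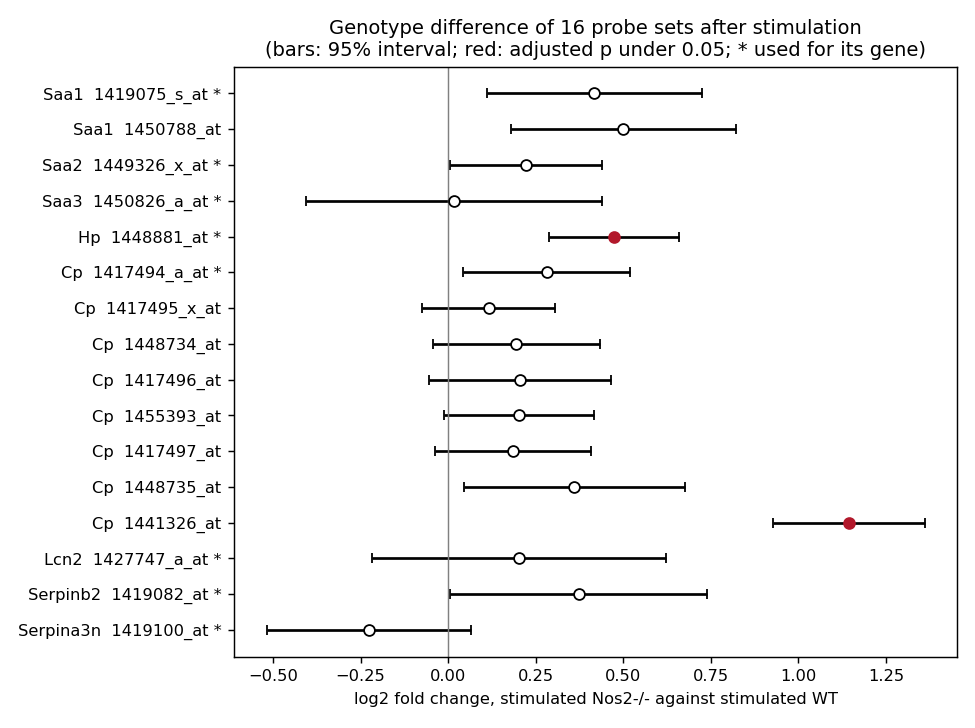
The horizontal axis is the log2 fold change of stimulated Nos2-/- against stimulated WT macrophages for the 16 probe sets of the 8 genes, with 95% intervals, red where the adjusted p over all probe sets is under 0.05 and starred where the probe set represents its gene. Of the 16, 15 lie above 0, and Hp 1448881_at (0.47) and Cp 1441326_at (1.14) are red.

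The 8 probe sets of Cp all rose with stimulation in both genotypes, by 1.37 to 6.57 on the log2 scale in Nos2-/- and by 0.76 to 6.30 in WT macrophages. By their means, all 8 were higher in Nos2-/- than in WT macrophages after stimulation, and 1 of them was called. In the fit of single probe sets, 2 of the 16 were called higher (Hp 1448881_at and Cp 1441326_at), where 0.828% of all probe sets were.

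Cp 1441326_at read 5.21, 4.91 and 5.06 in stimulated Nos2-/- arrays and 3.74, 4.10 and 3.91 in stimulated WT arrays, against 3.03, 3.18 and 3.21 in untreated Nos2-/- arrays and 3.08, 3.11 and 3.26 in untreated WT arrays. The stimulated genotypes differed by 1.14 (SE 0.10, adjusted p = 2.0e-05), while the other 7 Cp probe sets differed by 0.12 to 0.36, none of them called. This probe set was designed on a sequence of its own, whereas 6 of the other 7 were designed on a single shared sequence. Its untreated signals were flagged near background in both genotypes, and 2 of the 3 stimulated WT arrays (3.74 and 3.91) also lay below the 25th percentile of their array, so the size of the difference is read against signals mostly near background. Near background as well were the untreated signals of Cp 1448735_at, which read 3.28, 3.06 and 3.10 in untreated Nos2-/- and 3.35, 3.43 and 3.15 in untreated WT arrays.

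**Figure D4:**
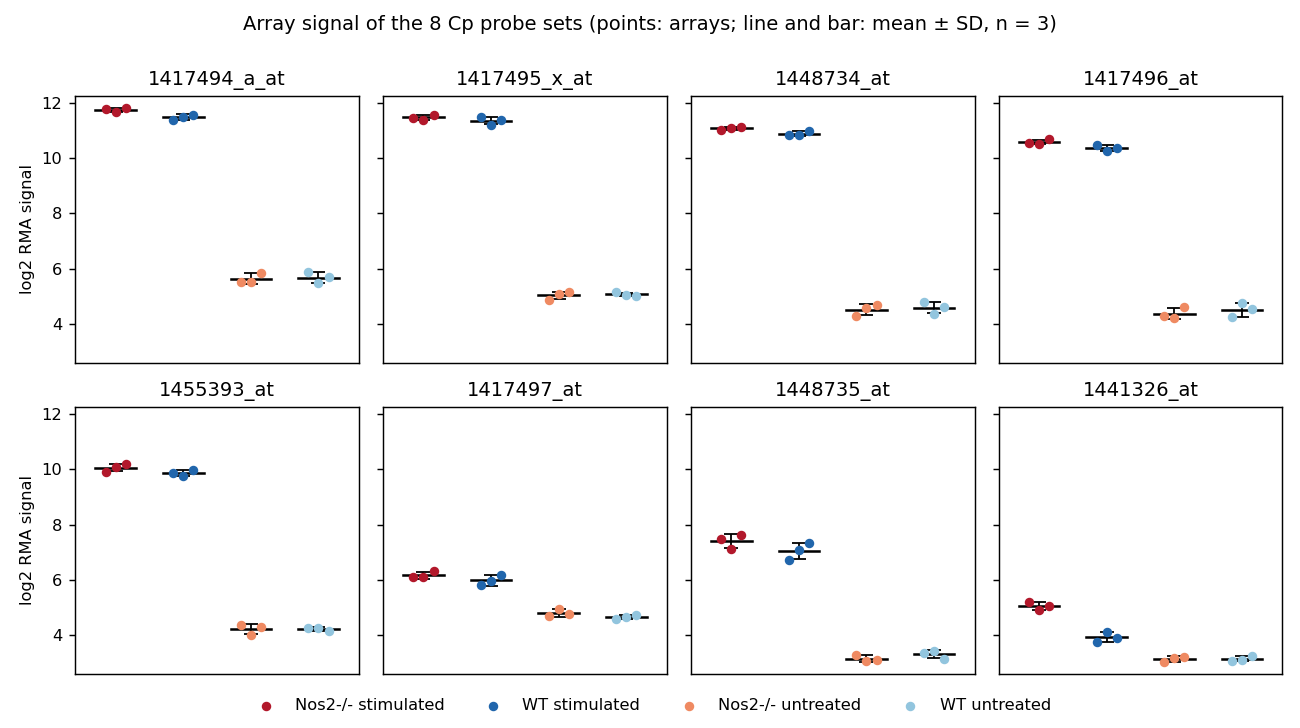
The vertical axis is the log2 RMA signal of each of the 8 Cp probe sets, with a point per array in the 4 groups and a line and bar for mean ± SD (n = 3). In 1441326_at the stimulated Nos2-/- arrays (4.91 to 5.21) are apart from the stimulated WT arrays (3.74 to 4.10), while for the other 7 the stimulated genotypes lie within 0.36 of each other by their means.

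Whether the response itself differed between genotypes was asked by the difference between the 2 responses, with 0 of the 8 members called, where 0.302% of genes were called higher and 0.676% lower. Hp had the smallest p of the members (difference 0.34, SE 0.12, unadjusted p = 0.0129, adjusted p = 0.300), and the only one under 0.05 before adjustment, as was the case for 1825 genes in all. For Saa3, Lcn2 and Serpinb2 the differences were -0.28 (interval -0.89 to 0.33), 0.02 (-0.59 to 0.63) and -0.18 (-0.71 to 0.35). Of the 16 probe sets, 1 was called, Cp 1441326_at (1.16, SE 0.14, adjusted p = 0.00108), against 0.184% of all probe sets called higher.

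In untreated macrophages 0 of the 8 members differed between Nos2-/- and WT in limma, and 0.0110% of all genes did (2 genes, with 728 at an unadjusted p under 0.05). Serpinb2 was the 1 member under 0.05 before adjustment in limma. It was 4.90 ± 0.27 in untreated Nos2-/- and 4.35 ± 0.42 in untreated WT macrophages (difference 0.55, SE 0.17, limma adjusted p = 1.00), and the groups overlap. The other 7 differed by -0.05 to 0.30.

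The SD between replicates was smaller in stimulated than in untreated cells for 7 of the 8 members in each genotype, the exceptions being Saa2 in Nos2-/- and Serpina3n in WT macrophages. The share of all genes with a smaller SD was not counted, so this is not read as particular to the members. The SD of the 8 members had a median of 0.08 in stimulated Nos2-/- and 0.09 in stimulated WT macrophages, against 0.24 in untreated Nos2-/- and 0.24 in untreated WT macrophages. The spread of Saa3, Lcn2 and Serpinb2, from 0.23 to 0.55 in untreated groups, therefore enters the standard error of their stimulated comparison, since limma fitted 1 spread for a gene over the 4 groups.

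Beyond the members, 23 of 28 other acute phase genes were measured, and 12 rose in each genotype, 11 of them in both, with none falling, S100a8 of the neutrophil list among them. Over all genes, 26.3% were called higher and 28.2% lower in Nos2-/-, and 29.6% and 28.4% in WT macrophages. The list's median was 0.26 in Nos2-/- and 0.24 in WT macrophages. Cfb, complement factor B, rose by 6.77 in Nos2-/- and 6.92 in WT macrophages, and Il1rn, the IL-1 receptor antagonist, by 5.25 in Nos2-/- and 5.22 in WT macrophages. The stimulated signals of Il1rn were near the maximum, at 14.03 in Nos2-/- and 13.97 in WT macrophages, so its changes may be limited by the top of the scale. Between the stimulated genotypes 2 of the 23 were called higher and none lower, beside 1.03% and 1.91% of all genes. Ptx3, a long pentraxin, was 9.69 in Nos2-/- and 8.16 in WT macrophages (1.53, SE 0.17, adjusted p = 0.000175) and its response differed as well (1.60, adjusted p = 0.00493). Steap4, a metalloreductase, was 6.45 in Nos2-/- and 5.94 in WT macrophages (0.51, adjusted p = 0.00926).

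Of the inducers and transcription factors of the acute phase, 20 of 21 were measured. In each genotype 16 rose and 2 fell (Cebpa and Il6st). Of all genes, 26.3% rose and 28.2% fell in Nos2-/-, and 29.6% and 28.4% in WT macrophages. Il6, the main inducer, rose by 9.38 in Nos2-/- and 9.20 in WT macrophages. Its untreated signals were near background, at 3.14 in Nos2-/- and 3.12 in WT macrophages, so these values may understate its change. Between stimulated genotypes 6 were called higher and 1 lower, beside 1.03% and 1.91% of all genes. Cebpd, a C/EBP factor of the acute phase, was 10.71 in Nos2-/- and 10.22 in WT macrophages (0.49, adjusted p = 0.000647), and Tnf was 10.28 in Nos2-/- and 9.88 in WT macrophages (0.41, adjusted p = 0.0131). Cebpa, the C/EBP factor of resting myeloid cells, was 6.31 in Nos2-/- and 7.48 in WT macrophages (-1.17, adjusted p = 0.000195). Cebpd, Tnf and Nfkbiz also had a larger rise, and Cebpa a larger fall, in Nos2-/- macrophages by the test of the difference between responses.

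Other serpins moved less than Serpinb2. Among 16 of 21 further clade B serpins that were measured, 7 rose and 2 fell in each genotype, and 6 rose in both. The shares over all genes were 26.3% up and 28.2% down in Nos2-/-, and 29.6% and 28.4% in WT macrophages. Serpinb7, near background in all 4 groups, was called in Nos2-/- alone and Serpinb12 in WT macrophages alone. The difference between the responses was called for neither. Serpinb1a, an inhibitor of neutrophil elastase, rose by 2.82 in Nos2-/- and 2.79 in WT macrophages, and Serpinb9, an inhibitor of granzyme B, by 2.01 in Nos2-/- and 2.47 in WT macrophages. After stimulation Serpinb9 was 9.97 in Nos2-/- and 10.36 in WT macrophages (-0.39, adjusted p = 0.00395) and its response was smaller (-0.46, adjusted p = 0.0347), Serpinb6b also was lower (-0.41, adjusted p = 0.0251), and Serpinb8 was higher (0.36, adjusted p = 0.00409). Of 9 other Serpina3 genes 2 were measured, and Serpina3i alone was called, in WT macrophages (0.36), with its untreated signals near background. Of 23 serpins of other clades 17 were measured, of which 5 rose in each genotype, 3 of them in both (Serping1, Serpini1 and Serpind1). As a share this is near the 26.3% and 29.6% of all genes called higher in Nos2-/- and in WT macrophages. Serping1, Serpina1b and Serpina1c were also counted among the other acute phase genes above, so the 2 lists are not separate. None of the 17 was called between the stimulated genotypes, beside 1.03% of all genes called higher and 1.91% lower. Serping1, the C1 inhibitor, was up by 1.02 in Nos2-/- and 1.04 in WT macrophages.

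Serine proteases and the urokinase receptor were measured as 9 genes, with 2 up and 1 down in Nos2-/- and 3 up and 1 down in WT macrophages. Of all genes, 26.3% were up and 28.2% down in Nos2-/-, and 29.6% and 28.4% in WT macrophages. None of the 9 was called between the stimulated genotypes, beside 1.03% of all genes called higher and 1.91% lower. With shares this small, 0 calls in so short a list says little about these genes. Plau, the urokinase that Serpinb2 inhibits, was 4.89 in stimulated against 6.47 in untreated Nos2-/- macrophages, a log2 fold change of -1.58, and 4.82 in stimulated against 6.75 in untreated WT macrophages, one of -1.93. Plat, the tissue plasminogen activator, rose by 1.68 in Nos2-/- and 1.12 in WT macrophages, and Plaur, the urokinase receptor, by 1.09 in both.

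Receptors and partners of the members were measured for 18 of 19 genes, with 6 up and 8 down in Nos2-/- macrophages and 7 up and 7 down in WT macrophages. Of all genes, 26.3% were up and 28.2% down in Nos2-/-, and 29.6% and 28.4% in WT macrophages. Fpr2, a formyl peptide receptor that binds serum amyloid A, rose by 5.03 in Nos2-/- and 4.99 in WT macrophages. Tfrc, the transferrin receptor, fell in both genotypes, with a log2 fold change of -2.35 in Nos2-/- and -2.11 in WT macrophages. Cd163, the scavenger receptor of haptoglobin-hemoglobin complexes, was chosen after its values were seen and fell in both genotypes, by 0.81 in Nos2-/- and 1.00 in WT macrophages. Between the stimulated genotypes 3 were lower in Nos2-/- and none higher, beside 1.91% and 1.03% of all genes. Slc40a1, the iron exporter ferroportin beside which ceruloplasmin works, was 5.88 in Nos2-/- and 8.84 in WT macrophages (-2.96, adjusted p = 1.2e-09), and Hmox1, heme oxygenase 1, was 12.74 in Nos2-/- and 13.67 in WT macrophages (-0.94, adjusted p = 3.9e-06). Cd36 was 11.16 in Nos2-/- and 11.77 in WT macrophages (-0.60, adjusted p = 0.00125).

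The gene outside the set whose signal ran most like that of a member was sought by Pearson's r over the 12 arrays, which all share the stimulation step. It was Mmp14 for Saa3 (0.9992), Tnip1 for Hp (0.9994), Arg2 for Cp (0.9997), Cnn3 for Lcn2 (0.9989) and Sod2 for Serpinb2 (0.999). For Saa1 it was Pik3r5 (0.9956) and for Saa2 Stimate (0.9913). Arg2, the mitochondrial arginase, read 11.33 in stimulated Nos2-/- and 11.02 in stimulated WT macrophages, and 4.06 in untreated Nos2-/- and 4.07 in untreated WT macrophages. Serpina3n had the weakest partner, Pabpc6 at 0.9281, whose own signal lay between 2.65 and 2.87 in the 4 groups.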

How the data were processed

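Log2 RMA signals were deposited by the authors for 45101 probe sets, which they had processed with RMA in Partek (version not given in the sources used here). RMA sets all arrays to the same distribution, so a shift of most genes would not be seen. After 64 control probe sets were left out, 34945 of 45037 named 1 gene and gave 18193 genes. Symbols came from the platform annotation. Dim probe sets were kept. Promoters came from RefSeq.

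Comparisons used lmFit and eBayes of limma 3.58.1 (two-sided, R 4.3.3) with 1 mean per group and the spread taken from all 12 arrays, once over genes and once over the 45037 probe sets. The methods name an analysis of variance. Benjamini-Hochberg adjustment ran over the whole table, calls were made at 0.05, and the fit was tested on simulated data. Python 3.11.15, Biopython 1.88 and matplotlib 3.10.9 were used for the tables, alignment and figures. Arrays have no read depth, and their number limits the precision. Alternatives were other scalings, filters, probe set rules, thresholds, a replicate block and the loss of each array.

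The members and lists were chosen with earlier results of these data known. Named genes were the members, up to 4 of the called genes with the largest change of each list in the comparison described, the gene most like each member, and Nos2. Cd163, the marker genes and the genes behind counts of 5 or fewer were named after their values were seen. Marker lists of hepatocytes, fibroblasts, adipocytes and T, NK and B cells were also measured.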

Additional observations from a re-analysis of the deposited data

Results flagged for a closer look

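Cp 1441326_at was singled out because its response to LPS and IFNγ differed between the genotypes by the test of that difference. The response was 1.92 in Nos2-/- and 0.76 in WT macrophages on the log2 scale, and the difference was 1.16 (SE 0.14, limma adjusted p = 0.00108 over all probe sets). Stimulated signals were 4.91 to 5.21 in Nos2-/- and 3.74 to 4.10 in WT arrays, and untreated signals 3.03 to 3.21 in Nos2-/- and 3.08 to 3.26 in WT arrays. All untreated arrays and 2 of the 3 stimulated WT arrays lay below the 25th percentile of their array, so the size of the difference rests on signals mostly near background. For the other 7 probe sets of Cp the difference between the responses was 0.03 to 0.53, and none was called.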

How the results depend on the processing

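Of 971 values of members and of Cp 1441326_at under up to 24 alternatives, 939 kept their direction and call, 12 lost a call, 4 gained one and 16 turned sign, none of these called. Between the stimulated genotypes 1 member was called, but 3 when the probe sets of each gene were averaged (Cp, Hp and Saa1), 2 with that average and Cp 1441326_at left out (Hp and Saa1, an alternative chosen after seeing the data, in which Cp had an adjusted p of 0.131), 2 with the replicate block (Hp and Saa1) and 0 with the thresholds of the methods. Hp kept an adjusted p under 0.05 in all 24 alternatives (0.00266 to 0.0315). Leaving out genes below the median signal gave 5 called members in the WT response in place of 8, since 5 were tested. Saa1, Saa2 and Serpina3n, which this filter left out, were not tested in the Nos2-/- response either, where Saa1 and Saa2 are otherwise called. The filter also gave 1 called probe set between the stimulated genotypes in place of 2. For the difference between the responses it gave 0 in place of 1, since Cp 1441326_at is dim. The thresholds of the methods also left 1 probe set between the stimulated genotypes. Cp 1441326_at kept its call wherever it was tested (20 alternatives for the stimulated genotypes and 19 for the difference). Deviations of same-numbered arrays from their group means correlated at -0.26 to 0.21 over all genes, which does not settle whether replicates were paired. With the block, Saa1 had a limma adjusted p of 0.0246 between the stimulated genotypes. The block changed no other count of members.

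Signs turned for Saa3 between the stimulated genotypes (-0.0045 to 0.0452 without each array) and, in untreated cells, for Saa1 with probe sets ending in _s_at or _x_at left out (-0.00563) and without each array in turn for Saa2 (-0.0657 to 0.0601), Cp (-0.16 to 0.0470), Lcn2 (-0.12 to 0.41) and Serpina3n (-0.13 to 0.12). The difference between the responses of Lcn2 ran from -0.21 to 0.33. The cause was not tested. Dim signals of Saa1, Saa2, Serpina3n and Cp 1441326_at limit what the arrays resolve, and the top of the scale may do so for Saa3 and Il1rn.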
